A study of Homo sapiens with 18 samples.

Results

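The 50 genes described here act in mitosis, the step of the cell cycle in which a cell shares out its copied chromosomes and divides, and they include MKI67, which encodes the Ki-67 antigen that pathologists stain to find dividing cells. They were chosen by symbol, as 50 of the 26475 gene symbols in the deposited count table, and all 50 passed the filter on low counts in both cell lines. Their RNA was measured by RNA sequencing in the uveal melanoma (UM) cell lines Mel92.1 and MP41, established lines from tumours of the pigment cells of the eye, to ask which genes respond when EHMT2 is inhibited. EHMT2, also called G9a, is an enzyme that methylates lysine 9 of histone H3 and silences genes. Cells of each line were kept for 48 h with the solvent DMSO, with the EHMT2 inhibitor UNC0642 at 1 μM or with the EHMT2 inhibitor A366 at 1 μM. Both inhibitors also act on EHMT1, the partner enzyme. Each group held 3 replicates, which gave 18 libraries, and each line stands for 1 tumour.

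Mitosis genes are switched on together. Cyclin B and CDK1 start mitosis, the kinetochore ties chromosomes to the spindle, the spindle checkpoint holds the cell until every chromosome is attached, and CDC20 with the anaphase-promoting complex then starts the separation of the chromosomes. Most of these genes are silent in resting cells and are raised in G2 by the MuvB complex with B-MYB and FOXM1, so their summed RNA is widely read as a measure of how many cells of a sample divide. In RNA from whole cultures, fewer cells in mitosis and less RNA per cell cannot be told apart.

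The placement of 4 libraries had to be settled before any result. The libraries labelled A366 replicates 2 and 3 of either line carried RNA of the other line. Of 27 genes expressed in Mel92.1 alone and 33 in MP41 alone, summed per library, the genes of the line in which a library was placed came to 90.9% to 114% of their level with DMSO, and those of the other line to at most 0.387%. The study's own listing of values per replicate placed 14 libraries as labelled and these 4 in the other line. Values below use that placement, so the Mel92.1 A366 group holds the libraries labelled Mel92.1 A366 replicate 1 and MP41 A366 replicates 2 and 3, and the MP41 A366 group the other 3. The counts and leading genes of each A366 comparison are also given as labelled and without the 4 libraries, but results by role and those of the other gene lists are for this placement alone. Without the 4 libraries the 1 remaining A366 library of a line is assumed to vary like the other groups. A further library stood apart, the one labelled Mel92.1 UNC0642 replicate 1. It had the fewest counts, 23601156, and 62941462 was the most in any library. In it 32.8% of counts lay on 4 ribosomal RNA genes, against 3.31% to 19.5% in the others, and 13344 genes had a count, against 16296 to 18217. Comparisons with UNC0642 in Mel92.1 are given with and without it. Melanocyte genes (MLANA, PMEL, TYR, TYRP1, DCT, MITF and SOX10) were found in all 18 libraries. Levels are given as CPM, which are counts scaled to a common library size, here with TMM factors. The lowest of the melanocyte genes was DCT, at 1.16 CPM in 1 library, and 10 markers of blood, endothelial, epithelial and connective tissue cells stayed at or under 2.88 CPM.

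Promoters of the genes on which the results turn are shown first, so that the DNA element known to gather these genes can be looked for in them. The element is the cell cycle genes homology region, written TTTGAA in its common form, which MuvB binds, and it often lies next to CCAAT boxes, bound by NF-Y. Each sequence below runs 5′ to 3′ on the strand of the gene, from 120 bases before to 20 bases after the start that RefSeq lists (build GRCh38.p14). Capitals mark TTTGAA and CCAAT on either strand, so that TTCAAA and ATTGG are capitals too. The first 5 are of the genes that rose with UNC0642 in Mel92.1, and PLK1 and CCNB2, which passed the test with neither inhibitor in either line, follow for comparison. The windows are MKI67 at chr10:128126404-128126543 (minus strand), CENPF at chr1:214603075-214603214 (plus strand), CENPE at chr4:103198324-103198463 (minus strand), KIF20B at chr10:89701470-89701609 (plus strand), SMC4 at chr3:160399530-160399669 (plus strand, the first of 2 listed starts), PLK1 at chr16:23678769-23678908 (plus strand) and CCNB2 at chr15:59105026-59105165 (plus strand).
MKI67: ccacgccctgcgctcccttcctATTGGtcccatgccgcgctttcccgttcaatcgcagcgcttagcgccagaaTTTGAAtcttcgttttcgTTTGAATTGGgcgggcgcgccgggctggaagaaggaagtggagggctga
CENPF: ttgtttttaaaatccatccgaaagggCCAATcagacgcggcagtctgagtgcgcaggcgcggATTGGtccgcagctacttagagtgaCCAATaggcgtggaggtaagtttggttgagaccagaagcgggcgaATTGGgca
CENPE: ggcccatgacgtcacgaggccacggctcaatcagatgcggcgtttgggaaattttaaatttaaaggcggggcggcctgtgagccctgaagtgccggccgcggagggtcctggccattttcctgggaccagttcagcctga
KIF20B: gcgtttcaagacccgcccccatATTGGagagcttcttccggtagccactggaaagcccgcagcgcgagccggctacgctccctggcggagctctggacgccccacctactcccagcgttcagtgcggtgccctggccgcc
SMC4: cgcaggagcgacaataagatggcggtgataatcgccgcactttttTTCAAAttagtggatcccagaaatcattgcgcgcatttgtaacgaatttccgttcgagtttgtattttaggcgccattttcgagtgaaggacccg
PLK1: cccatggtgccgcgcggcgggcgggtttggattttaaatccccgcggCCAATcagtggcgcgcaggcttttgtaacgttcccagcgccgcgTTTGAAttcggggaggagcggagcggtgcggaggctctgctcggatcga
CCNB2: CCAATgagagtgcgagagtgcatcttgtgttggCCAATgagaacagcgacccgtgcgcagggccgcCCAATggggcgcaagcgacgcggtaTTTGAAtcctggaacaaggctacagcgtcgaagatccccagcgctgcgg

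MKI67 carried TTTGAA at 2 places, with first bases 47 and 29 bases before the start, and PLK1 and CCNB2 each carried it 29 bases before the start with CCAAT boxes further out. In this window CENPF and KIF20B held CCAAT but no TTTGAA, SMC4 held TTTGAA but no CCAAT, and CENPE held neither motif. The promoter table gave 52 windows for 43 of the 50 genes, each of 250 bases before to 50 bases after a start, and AURKA, BUB3, TTK, BIRC5, TPX2, UBE2C and FOXM1 were not in it. On both strands, TTTGAA lay in 36 of the 52 windows (69.2%), against 15.2% of all 35116 windows of that length, and CCAAT in 37 of the 52 (71.2%) against 34.6%. Within the 100 bases before the start the shares were 44.2% against 4.87% for TTTGAA and 57.7% against 18.4% for CCAAT. By response, TTTGAA was present anywhere in these windows in 27 of the 35 listed genes that fell with A366 in MP41 and in 6 of the 8 that did not, and in 4 of the 5 that rose with UNC0642 in Mel92.1. In CENPF (first base at position 41) and KIF20B (25 and 31) it lay only after the start. The motifs are matches of letters and were not tested as binding sites.

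Without inhibitor, MKI67, CENPE and CENPF were far lower in Mel92.1 than in MP41. In DMSO-treated Mel92.1 cells MKI67 stood at 15.2, 12.0 and 11.3 CPM in replicates 1 to 3, and in DMSO-treated MP41 cells at 474, 415 and 480 CPM. CENPE, the kinesin that carries chromosomes to the middle of the spindle, stood at 4.79, 4.60 and 3.95 CPM in Mel92.1 and at 143, 134 and 145 CPM in MP41. CENPF, a kinetochore protein, stood at 68.3, 47.8 and 49.1 CPM in Mel92.1 and at 716, 688 and 708 CPM in MP41. For none of these genes did the groups come near each other.

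In 1 fit of all 18 libraries, whose CPM scale differs a little from that of the fits per line, 36 of the 50 genes were lower and 6 higher in Mel92.1 than in MP41 at an adjusted p under 0.05 (edgeR's quasi-likelihood test, Benjamini-Hochberg adjustment over 15799 genes). Over all genes, 34.8% were lower and 34.5% higher, and the median log2 difference was -0.83 for the 50 genes and -0.02 for all genes. MKI67 differed by -4.90 on the log2 scale (SE 0.17, adjusted p = 4.43e-13), CENPE by -4.73 (SE 0.12, adjusted p = 2.98e-15) and CENPF by -3.43 (SE 0.13, adjusted p = 7.61e-13). ASPM, which focuses the spindle poles, followed at -2.21, the kinesin KIF20B at -2.08 and DLGAP5, which stabilises spindle fibres, at -2.07. The motors and spindle proteins KIF14 (-1.54), KIF11 (-0.99) and TPX2 (-0.84) and the DNA-untangling enzyme TOP2A (-1.10) were lower by less. The regulators of entry into mitosis did not share 1 direction. The kinase AURKA (-0.97) and cyclin B1 (CCNB1, -0.49) were lower, whereas the kinase CDK1 stood at 149 ± 6.94 against 160 ± 8.48 CPM (SD, n = 3) and cyclin A2 (CCNA2) at 156 ± 7.77 against 155 ± 3.98 CPM, and neither passed the test. The 6 genes that were higher in Mel92.1 were PTTG1 (securin, 0.72), BIRC5 (survivin, 0.68), FOXM1 (0.28), CCNB2 (0.27), UBE2C (0.26) and PLK1 (0.23). Once GC content and length entered the fit as an offset, the differences were smaller, at -4.41 for MKI67, -4.01 for CENPE, -2.73 for CENPF, -1.43 for ASPM and -1.45 for KIF20B, all still past the test. With it FOXM1 (0.02) and PLK1 (-0.05) did not pass, and CDK1 passed as higher (0.19, adjusted p = 0.0123).

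The low level of MKI67 in Mel92.1 held per length as well. Divided by the length of the longest transcript in kilobases, MKI67 had 1.10 CPM per kb in DMSO-treated Mel92.1 cells, CENPE 0.56, CENPF 5.80, CDK1 76.3 and CCNB1 91.6. In DMSO-treated MP41 cells MKI67 had 32.9 CPM per kb, CENPF 62.4, CDK1 82.0 and CCNB1 129. In Mel92.1 only CENPE was lower than MKI67 among the 50 genes on this scale, whereas in MP41 MKI67 lay between NCAPH (32.7) and ECT2 (34.3), near the middle of the 50.

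**Figure D1:**
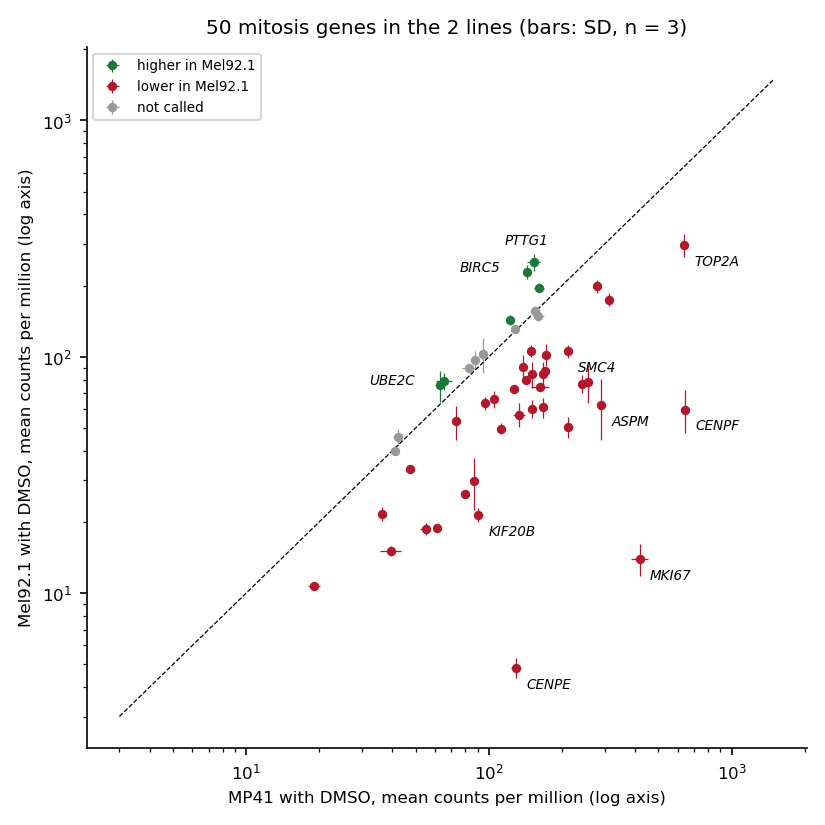
Mean CPM of the 50 genes with DMSO in MP41 (horizontal, log axis) and Mel92.1 (vertical, log axis), with SD bars over 3 replicates, on the scale of the 18-library fit. The dashed line marks equal levels. MKI67, CENPE and CENPF lie farthest under the line, at log2 differences of -4.90, -4.73 and -3.43, and 36 genes are marked as lower in Mel92.1.

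UNC0642 raised 5 of the 50 genes in Mel92.1 and lowered none. MKI67 rose 5.55-fold. It stood at 61.7, 65.3 and 86.4 CPM with UNC0642 against 15.2, 12.0 and 11.3 CPM with DMSO, and no treated library came near the controls (log2 fold change 2.47, SE 0.16, adjusted p = 0.000216). CENPF stood at 116, 117 and 133 CPM against 68.3, 47.8 and 49.1 CPM (1.14, SE 0.14, adjusted p = 0.00396), and CENPE at 8.39, 11.3 and 9.68 CPM against 4.79, 4.60 and 3.95 CPM (1.14, SE 0.15, adjusted p = 0.00796). The levels of both kinetochore genes did not overlap between the groups.

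KIF20B, a kinesin that acts in cytokinesis, stood at 25.8, 36.5 and 34.6 CPM with UNC0642 against 20.9, 19.9 and 18.2 CPM with DMSO (0.72, SE 0.13, adjusted p = 0.0357). Its lowest treated value belonged to replicate 1, the library with the most ribosomal RNA. SMC4, a core subunit of condensin, which packs chromosomes for mitosis, stood at 146, 135 and 146 CPM against 105, 93.6 and 93.1 CPM (0.55, SE 0.07, adjusted p = 0.00474). Even after these rises, all 5 genes stayed under their level in DMSO-treated MP41 cells, with MKI67 at 71.2 ± 13.4 CPM (SD, n = 3) in UNC0642-treated Mel92.1 cells and at 457 ± 36.0 CPM in DMSO-treated MP41 cells, each on the scale of its own line.

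Over all genes tested in Mel92.1, 0.551% rose and 0.138% fell with UNC0642. At an unadjusted p under 0.05, 11 of the 50 genes were higher and 4 lower. The share of all genes at this threshold is not given, here or below, so such counts cannot be set against all genes. With no overlap between the replicates 11 members were higher and 3 lower, against 7.29% and 8.16% of all genes. The other 45 genes did not pass. Of all 50 genes, 28 log2 fold changes were above 0, and the median was 0.03 against -0.02 for all genes. By role, 2 of the 6 genes of chromosome structure and proliferation rose, 2 of the 6 kinetochore genes and 1 of the 8 mitotic kinesins. None of the 8 regulators of mitotic entry, the 5 checkpoint genes, the 3 members of the chromosomal passenger complex, the 8 spindle assembly genes, the 2 cytokinesis genes or the 4 genes of anaphase and exit passed edgeR's test in either direction. Among these, DESeq2 called DLGAP5 and limma voom HMMR, both spindle assembly genes, as higher. The next values belonged to KIF18A (0.61, adjusted p = 0.323), a kinesin that trims spindle fibres, with replicates at 28.6, 15.6 and 19.9 CPM, and to DLGAP5 (0.41, adjusted p = 0.235). The lowest were UBE2C at -0.29, ESPL1 at -0.28 and CDC25C at -0.26, none past the test.

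The same 5 genes were called without the library labelled Mel92.1 UNC0642 replicate 1, with log2 fold changes of 2.56 for MKI67, 1.24 for CENPE, 1.18 for CENPF, 0.85 for KIF20B and 0.53 for SMC4. KIF20B, with the smallest margin, lost its call in 8 of the 9 fits that left out 1 library, and CENPE in the 2 fits without Mel92.1 DMSO replicate 2 or 3, where 3 genes were called. No UNC0642 or DMSO library was exchanged, but the A366 libraries of the line enter the estimate of the spread. With the libraries as labelled, the log2 fold change of MKI67 was again 2.47 and no member passed (adjusted p = 1), with 5 at an unadjusted p under 0.05. Without the 4 exchanged libraries MKI67, CENPF and SMC4 were called.

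**Figure D2:**
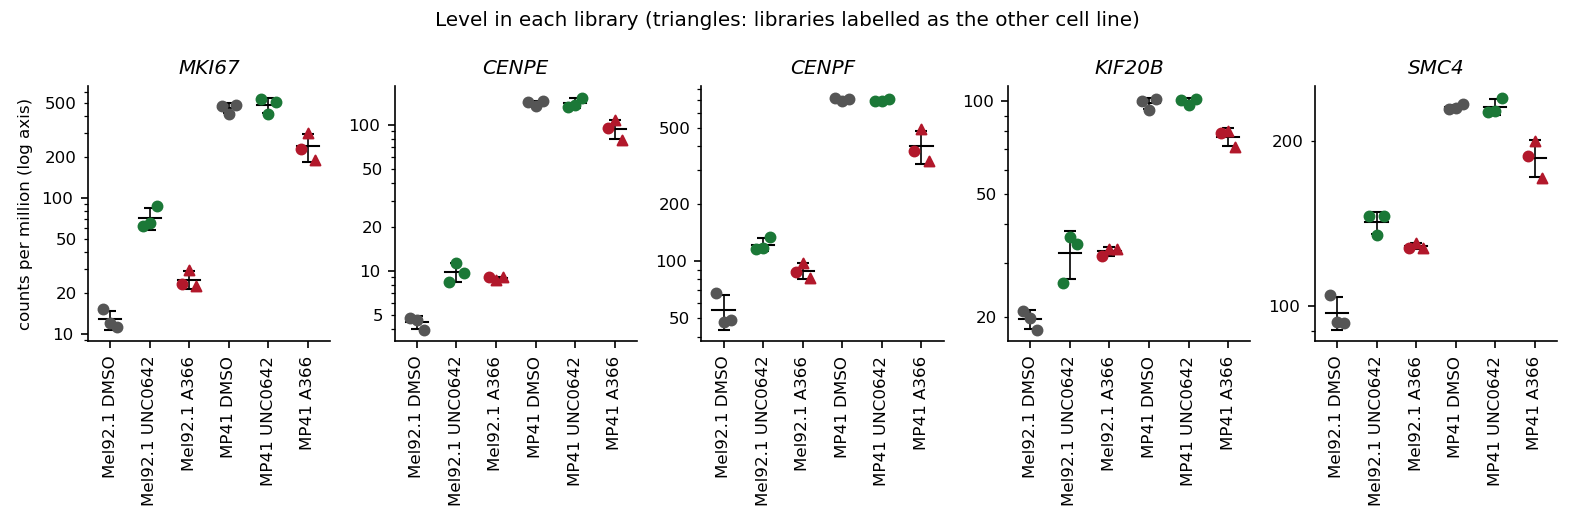
Level in CPM (log axis) of the 5 genes that rose with UNC0642 in Mel92.1, in each of the 18 libraries by group, with the mean and SD of 3 replicates. Triangles are libraries labelled as the other cell line. In Mel92.1 the UNC0642 points of MKI67, at 61.7 to 86.4, lie above the A366 points, at 22.7 to 29.4, and the DMSO points, at 11.3 to 15.2. In MP41 the A366 points of MKI67, at 189 to 298, lie below all others.

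A366 raised 1 of the 50 genes in Mel92.1. CENPE stood at 9.01, 8.71 and 9.01 CPM with A366 against the same DMSO values of 4.79, 4.60 and 3.95 CPM, with no overlap between the groups (log2 fold change 1.00, SE 0.15, adjusted p = 0.0336). Over all genes tested, 0.179% rose and 0.0344% fell. The other genes that had risen with UNC0642 lay above DMSO in every A366 library without passing the test. MKI67 stood at 23.2, 29.4 and 22.7 CPM (0.97, SE 0.17, adjusted p = 0.063), KIF20B at 31.5, 33.4 and 33.3 CPM (0.73, adjusted p = 0.063), SMC4 at 128, 130 and 128 CPM (0.40, adjusted p = 0.0551) and CENPF at 87.6, 98.0 and 81.5 CPM (0.69, adjusted p = 0.114).

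Of all 50 genes, 38 log2 fold changes were above 0, with a median of 0.10 against -0.01 for all genes. At an unadjusted p under 0.05, 11 genes were higher and 0 lower. With no overlap between replicates 14 were higher and 0 lower, against 8.63% and 7.13% of all genes. The lowest values were INCENP at -0.20, UBE2C at -0.12 and BIRC5 at -0.06, none past the test. The CENPE call rested on the placement and on most of the libraries: it was lost as labelled, without the 4 exchanged libraries (5 higher and 0 lower at an unadjusted p under 0.05), with GC content and length as an offset, which called MKI67 and CENPF instead, and in 8 of the 9 fits that left out 1 library. As labelled, where the group held 1 Mel92.1 and 2 MP41 libraries, CENPE changed by 3.66 and MKI67 by 3.53 on the log2 scale, and 0 members passed, with 25 higher and 1 lower at an unadjusted p under 0.05. Leaving out the library labelled Mel92.1 UNC0642 replicate 1 gave 4 calls, CENPE, KIF20B (0.73), MKI67 (0.97) and SMC4. Over all genes that fit called 101 higher and 46 lower. DESeq2 called 6 genes as higher, MKI67, SMC4, NUF2, CENPE, CENPF and KIF20B, and over all genes 113 higher and 58 lower. All comparisons with DMSO in a line share their 3 DMSO libraries, so the values of the 2 inhibitors are set side by side and are not independent.

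At the same dose and time, A366 and UNC0642 differed for MKI67 in Mel92.1. MKI67 was lower with A366 than with UNC0642, at 25.1 ± 3.73 against 71.2 ± 13.4 CPM (SD, n = 3, log2 difference -1.50, SE 0.16, adjusted p = 0.00723). It was the 1 member to pass. Over all genes, 0.0619% were lower and 0.103% higher with A366. CENPF was the next at -0.45 (95% interval -0.75 to -0.15, adjusted p = 0.453), and SMC4 at -0.14 had an interval of -0.29 to 0.01. Without the library labelled Mel92.1 UNC0642 replicate 1, MKI67 differed by -1.59 (adjusted p = 0.00616) and was again the 1 member to pass. The MKI67 call was lost without the library labelled Mel92.1 A366 replicate 1 or MP41 A366 replicate 3, and without all 4 exchanged libraries (-1.62, adjusted p = 0.547), and as labelled the value was 1.06 in the other direction (adjusted p = 0.292).

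With UNC0642 in MP41, none of the 50 genes passed the test. MKI67 stood at 531, 409 and 501 CPM with UNC0642 and at 474, 415 and 480 CPM with DMSO, and the groups overlapped (log2 fold change 0.07, 95% interval -0.23 to 0.38). The 95% interval was -0.21 to 0.22 for CENPE and -0.25 to 0.21 for CENPF. Log2 fold changes ran from -0.06 for CENPA, the histone variant of centromeres, to 0.20 for PTTG1. The median was 0.05 for the 50 genes and 0.001 for all genes, and 45 of the 50 were above 0. With no overlap between replicates, 9 members were higher and 0 lower, against 8.91% and 9.86% of all genes. At an unadjusted p under 0.05, 2 members were higher (KIF23 and KIF4A) and 0 lower. DESeq2 and limma voom called 0 members as well, with 2 and 7 higher at an unadjusted p under 0.05. Over all genes tested in MP41, 0.114% rose and 0.127% fell.

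The response to UNC0642 differed between the lines for the same 5 genes that rose in Mel92.1. With the MP41 change subtracted from the Mel92.1 change and tested as an interaction, the difference was 2.40 for MKI67 (SE 0.24, adjusted p = 3.94e-05), 1.17 for CENPF (adjusted p = 0.00365), 1.15 for CENPE (adjusted p = 0.00108), 0.70 for KIF20B (adjusted p = 0.0188) and 0.55 for SMC4 (adjusted p = 0.00489). In the other direction edgeR called 0 members, with 3 at an unadjusted p under 0.05 and ESPL1 lowest at -0.35 (adjusted p = 0.277), while DESeq2 called 1, KIF2C. Over all genes, 0.481% had a higher and 0.12% a lower change in Mel92.1. As labelled, 0 members passed, with 2 higher and 1 lower at an unadjusted p under 0.05. Without the 4 exchanged libraries 4 passed, all of the 5 but KIF20B, and over all genes 49 were higher and 7 lower. Without the library labelled Mel92.1 UNC0642 replicate 1 the same 5 passed, with MKI67 at 2.49.

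A366 lowered most of the 50 genes in MP41. At an adjusted p under 0.05, 39 fell and 1 rose, while over all genes 23.5% fell and 22.5% rose, so that changes in both directions were common in this comparison. The members lay to the lower side: 44 of the 50 log2 fold changes were below 0, with a median of -0.38 against 0.02 for all genes. With no overlap between replicates 40 were lower and 2 higher, against 28.4% and 29.7% of all genes. The summed level of the 50 genes was 5954 to 6777 CPM in the A366 libraries, 8497 to 8664 CPM with DMSO and 8851 to 8961 CPM with UNC0642. The A366 libraries also held more ribosomal RNA, 5.93% to 11.0% of counts against 3.31% to 5.10% with DMSO, and the part of this in the result was not tested. Of the 10 markers of other cell types, 3 passed the filter on low counts in MP41 and were tested. Among these 1, the endothelial gene VWF, rose with A366, at 2.76 against 0.415 CPM. The summed level of the 10 markers was 3.30 to 4.02 CPM with A366 and 1.15 to 1.97 CPM with DMSO.

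ASPM fell the most. It stood at 144, 198 and 116 CPM with A366 against 322, 305 and 323 CPM with DMSO (log2 fold change -1.05, SE 0.14, adjusted p = 0.000417), which is 2.07-fold lower. MKI67 stood at 228, 298 and 189 CPM against 474, 415 and 480 CPM (-0.94, SE 0.14, adjusted p = 0.00063). In both genes the second A366 library was the highest of the 3 and was still below every control.

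All 6 genes of chromosome structure and proliferation fell, and with GC content and length as an offset 5 did, SMC4 (0.05) having no call. Besides MKI67, TOP2A, which untangles DNA so that sister chromosomes can part, stood at 448, 514 and 419 CPM against 703, 685 and 704 CPM (-0.60, adjusted p = 0.000242). The condensin genes NCAPG (-0.53), SMC2 (-0.58), NCAPH (-0.40) and SMC4 (-0.31) had smaller changes. Both cytokinesis genes fell too. ECT2, which switches on the contractile ring, stood at 94.7, 109 and 80.6 CPM against 166, 159 and 172 CPM (-0.80, adjusted p = 0.000253), and ANLN, which builds the ring, fell by 0.72 on the log2 scale.

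All 8 mitotic kinesins and all 8 spindle assembly genes fell, and with GC content and length as an offset 5 of the 8 kinesins and all 8 spindle assembly genes did (KIF20B, KIF4A and KIF18A lost their calls). KIF14, a kinesin needed to finish division, stood at 49.6, 63.5 and 40.8 CPM against 97.6, 94.3 and 93.4 CPM (-0.89, adjusted p = 0.000467). KIF11, the motor that pushes the spindle poles apart, changed by -0.62 and KIF20A, which acts at the spindle midzone, by -0.23. Among spindle assembly genes, the changes ran from -1.05 for ASPM to -0.26 for PRC1, with TPX2, an activator of AURKA, at -0.44 and NUSAP1, a binder of spindle fibres, at -0.39. At the kinetochore, CENPF stood at 378, 489 and 336 CPM against 716, 688 and 708 CPM (-0.81, adjusted p = 0.000329), CENPE changed by -0.59 and NDC80, the anchor of spindle fibres, by -0.19 (adjusted p = 0.0394), while CENPA (0.14) and SPC25 (-0.02) did not pass. Of the 5 checkpoint genes 4 fell, among them BUB1 (-0.61), BUB1B (-0.58) and TTK (-0.50), and BUB3 (-0.10) did not pass.

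Of the 8 entry genes 5 fell, CCNA2 (-0.44), CDK1 (-0.31), FOXM1 (-0.28), AURKA (-0.21) and CCNB1 (-0.20), the cyclins, kinases and transcription factor that start mitosis. PLK1 (-0.12, adjusted p = 0.174), CCNB2 (-0.11) and CDC25C (-0.07) did not pass. With GC content and length as an offset, 6 of the 8 entry genes and all 4 anaphase and exit genes were lower. Of the 4 anaphase and exit genes, ESPL1, the separase that cuts the tie between sister chromosomes, fell by 0.42 on the log2 scale, and CDC20 (0.14), PTTG1 (0.12) and UBE2C (0.11) did not pass. CDC20, the activator of the anaphase-promoting complex, stood at 104, 94.2 and 118 CPM with A366 and at 96.9, 94.6 and 95.9 CPM with DMSO, and the groups overlapped. In the chromosomal passenger complex INCENP fell (-0.39), AURKB did not pass (0.06), and BIRC5 rose, at 193, 165 and 196 CPM against 155, 164 and 151 CPM (0.23, adjusted p = 0.0404), a call lost in 5 of the 9 fits that left out 1 library. The calls of KIF20A and NDC80 were lost in 5 and 6 of these fits.

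**Figure D3:**
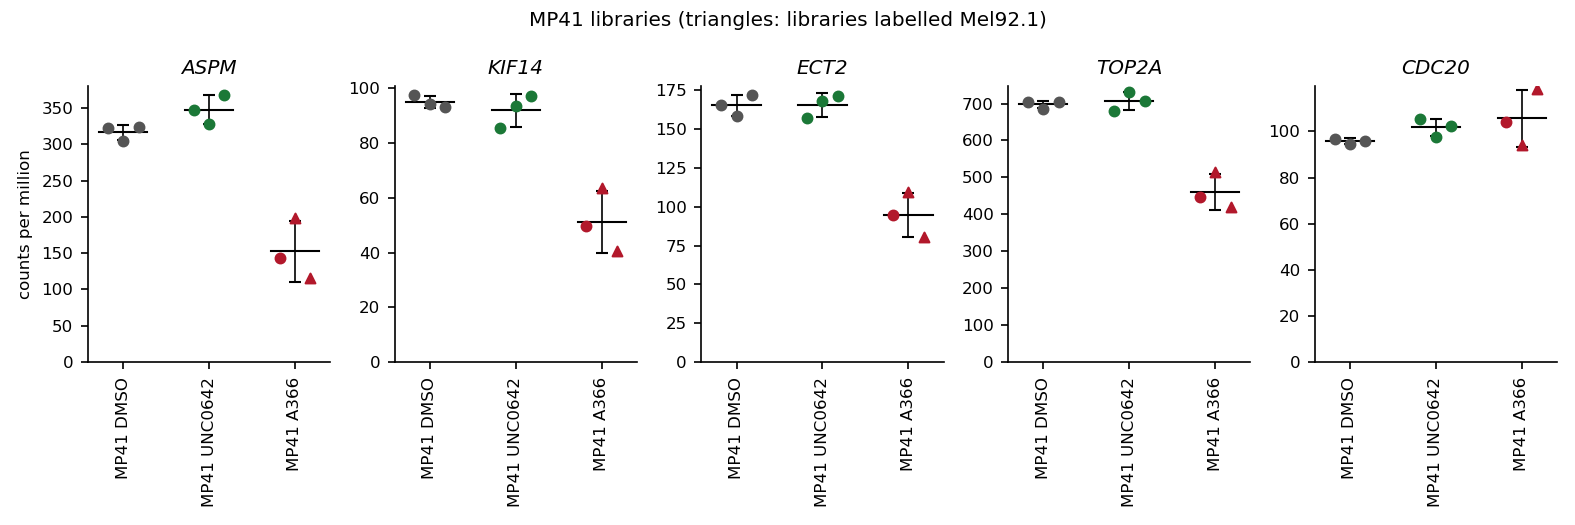
Level in CPM of 5 genes in the 9 MP41 libraries by treatment, with mean and SD of 3 replicates, on axes that start at 0. Triangles are libraries labelled Mel92.1. ASPM, KIF14, ECT2 and TOP2A are lower in each A366 library than in any other, and CDC20, at 94.2 to 118 with A366 and 94.6 to 96.9 with DMSO, is not separated.

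As labelled, the MP41 A366 group held 1 MP41 and 2 Mel92.1 libraries. There 30 members were lower and 2 higher, against 2029 and 2922 of all genes tested. The median was -0.56 for the members and 0.02 for all genes, and MKI67 changed by -2.23 on the log2 scale. Without the 4 libraries, which leaves 1 A366 library, the median was -0.41 for the members and 0.002 for all genes, and MKI67 changed by -1.01. Leaving out single libraries gave 34 to 43 calls, the most without the library labelled Mel92.1 A366 replicate 2.

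Change with A366 in MP41 went with transcript length. Across the 50 genes, Spearman's rho of the log2 fold change with the length of the longest transcript was -0.69, and across 14450 genes -0.47, a description only, since genes of 1 set of libraries share their depth and quality. With GC content rho was 0.52 and 0.46. The members that fell had a median length of 3725 bases. Those not called lower, BIRC5 among them, had a median of 1777 bases, with UBE2C at 914 bases the shortest. MKI67 has 12678, ASPM 10887, CENPF 10307 and CENPE 8612. With GC content and length entered as an offset in each library, 38 members were lower and 1 higher, and 33 of the 40 calls stayed. In that fit 2763 of all genes tested were lower and 2480 higher. The median was -0.27 for the members and -0.009 for all genes. MKI67 changed by -0.59, ASPM by -0.52, ECT2 by -0.53 and KIF14 by -0.46, and they remained past the test. CENPE (-0.08, adjusted p = 0.303), KIF20B (0.08), SMC4 (0.05), MAD2L1 (0.14), KIF4A (-0.12), KIF18A (-0.15) and BIRC5 (0.06) no longer passed, while CDC20 (-0.26), AURKB (-0.38), UBE2C (-0.25), PTTG1 (-0.21) and PLK1 (-0.25) came to pass as lower and BUB3 (0.34) as higher. The part of RNA quality in the relation with length was not tested.

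In Mel92.1 the sign was the opposite. Across the 50 genes rho with length was 0.41 for both inhibitors, against -0.12 with UNC0642 and 0.02 with A366 across 14092 genes, and rho with GC content was -0.60 and -0.70, against -0.11 and -0.23. With the offset, MKI67 (2.55), CENPE (1.18), CENPF (1.19), KIF20B (0.74) and SMC4 (0.57) passed with UNC0642, and SMC2 was added. The offset takes out the trend over all genes, which with length had the other sign here. It therefore cannot show whether length has a part in these rises, and this was not tested.

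**Figure D4:**
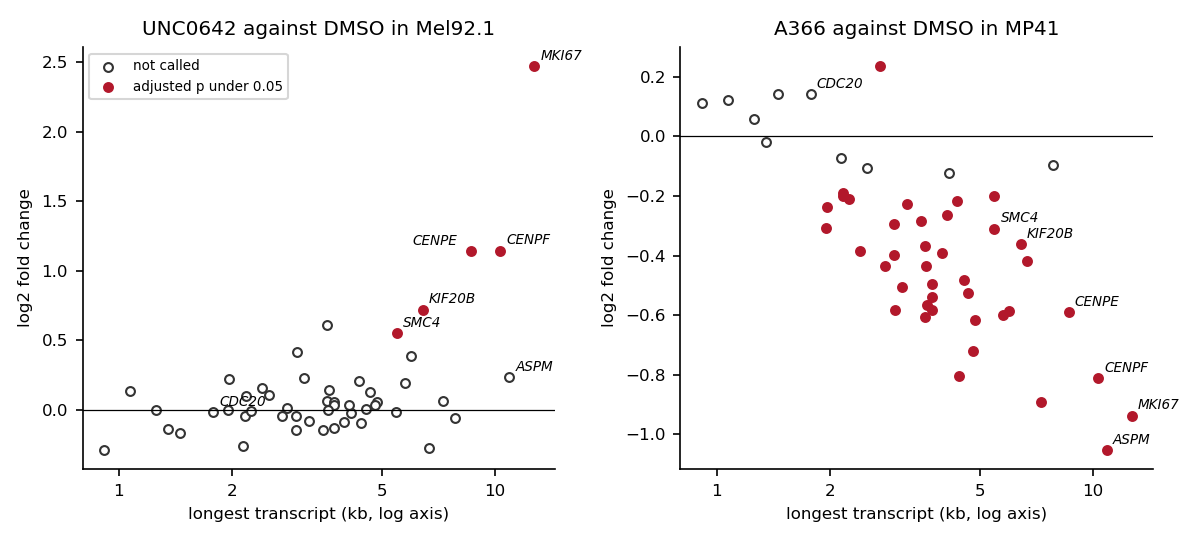
Log2 fold change of the 50 genes (vertical) against the length of the longest transcript in kb (horizontal, log axis), for UNC0642 in Mel92.1 (left) and A366 in MP41 (right). Filled points passed the test. On the right ASPM (-1.05), MKI67 (-0.94), KIF14 (-0.89) and CENPF (-0.81) lie lowest. The shortest genes lie near 0 there, as does BUB3 (-0.10) at 7828 bases. On the left MKI67 (2.47), CENPE and CENPF (both 1.14) lie highest.

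A366 and UNC0642 differed widely in MP41. With A366 40 members were lower than with UNC0642 and 1, CENPA, higher (0.20, adjusted p = 0.0409, lost in 7 of the 9 fits that left out 1 library), against 22% and 21.1% of all genes, and the median log2 difference was -0.43 against 0.01. ASPM (-1.19, SE 0.14, adjusted p = 0.000181), MKI67 (-1.01), KIF14 (-0.84) and ECT2 (-0.80) differed the most. CDC20 (0.05), AURKB (-0.05) and UBE2C (0.08) did not pass. As labelled 31 members were lower and 1 higher, against 1865 and 2805 of all genes tested. Without the 4 exchanged libraries the median difference was -0.44 for the members and -0.02 for all genes.

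The response to A366 differed between the lines for 31 of the 50 genes, all with a higher change in Mel92.1 than in MP41. Over all genes, 5.13% had a higher and 8.67% a lower change in Mel92.1, and the median difference was 0.47 for the 50 genes and -0.03 for all. The differences were 1.88 for MKI67 (SE 0.24, adjusted p = 0.000267), 1.56 for CENPE (SE 0.16, adjusted p = 3.35e-05), 1.48 for CENPF (SE 0.18, adjusted p = 0.000231), 1.26 for ASPM (adjusted p = 0.0115), 1.13 for KIF14 and 1.07 for KIF20B. For MKI67, CENPE, CENPF and KIF20B the A366 values lay above DMSO in every Mel92.1 library and below DMSO in every MP41 library. With GC content and length as an offset, CENPE (-0.08) and KIF20B (0.08) no longer passed in MP41, while MKI67 (-0.59) and CENPF (-0.32) did. Across the 50 genes, rho of this line difference was 0.69 with length and -0.70 with GC content. Across 15231 genes it was 0.41 and -0.47. ASPM and KIF14 differed through MP41, with log2 fold changes of 0.24 and 0.26 in Mel92.1 that did not pass. CDC20 (-0.18), AURKB (-0.07), PLK1 (0.06) and BIRC5 (-0.33, adjusted p = 0.0782) did not differ past the test. Without the 4 exchanged libraries the difference was 1.83 for MKI67, 1.56 for CENPE and 0.98 for KIF20B. As labelled, 34 members were higher and 2 lower, against 3745 and 4056 of all genes tested.

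**Figure D5:**
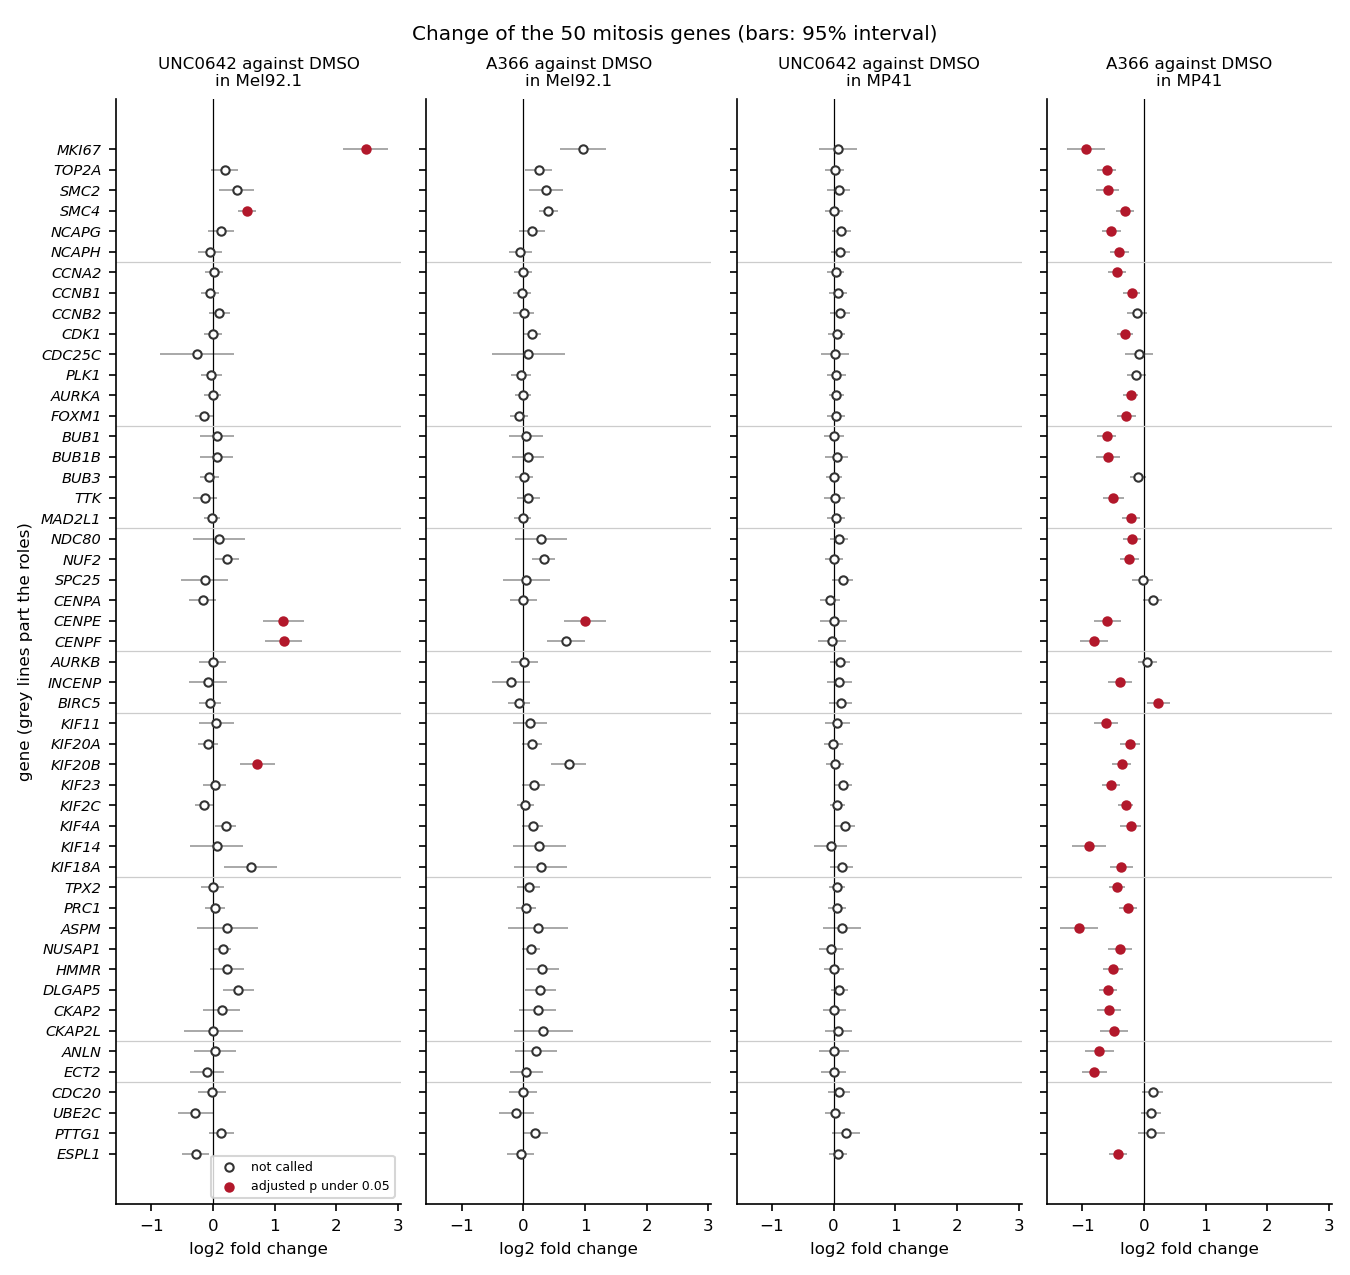
Log2 fold change and 95% interval of each of the 50 genes, grouped by role, for both inhibitors against DMSO in both lines. Filled points passed the test. In Mel92.1, 5 points are filled with UNC0642 and 1 with A366. In MP41, 0 are filled with UNC0642 and 40 with A366, and 39 of these lie below 0.

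Genes around the 50 were read from lists. Of 54 other mitosis genes, 28 fell and 3 rose with A366 in MP41, where 23.5% of all genes fell and 22.5% rose. Their median log2 fold change was -0.22 against 0.02 for all genes. SPAG5, a spindle protein, stood at 134 against 193 CPM (-0.53, adjusted p = 0.000229), the centromere gene CENPI changed by -0.65 and CDCA2 by -0.72, and CENPM (0.62), PMF1 (0.31) and NCAPH2 (0.30) rose. Of 19 regulators of mitotic transcription, 12 fell and 2 rose, with a median of -0.34. RBL1, the p107 protein of the complex that keeps these genes silent in resting cells, changed by -0.69, the repressor E2F7 by -0.67 and TFDP1, the partner of E2F factors, by -0.34, while E2F4 (0.27) and E2F1 (0.21) rose.

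Of 17 genes of the anaphase-promoting complex and its partners, 8 rose and 5 fell with A366 in MP41, where 22.5% of all genes rose and 23.5% fell. ANAPC11 stood at 105 against 53.3 CPM (0.97, adjusted p = 0.000515) and ANAPC16 (0.49) and UBE2S (0.58) rose, while ANAPC1 (-0.66), CDC27 (-0.58) and CDC23 (-0.37) fell. In the other 3 comparisons of an inhibitor with DMSO, 0 genes of these 3 lists passed edgeR's test. At an unadjusted p under 0.05, 4 of the 54 other mitosis genes were higher and 3 lower with UNC0642 in Mel92.1, 3 higher and 0 lower with A366 in Mel92.1, and 1 higher and 0 lower with UNC0642 in MP41. In the response to A366, 19 of the 54 other mitosis genes had a higher and 1 a lower change in Mel92.1 than in MP41, 4 and 1 of the 19 regulators, and 4 and 4 of the 17 genes of the complex. The shares of all genes were 5.13% higher and 8.67% lower. Between the lines with DMSO, 19 of the 54 other mitosis genes were higher and 26 lower in Mel92.1, 8 and 4 of the 19 regulators, and 8 and 3 of the 17 genes of the complex. Here 34.5% of all genes were higher and 34.8% lower. The melanocyte genes, which mark the cells themselves, moved in both directions: with A366 in MP41 PMEL (0.42), MLANA (0.31) and SOX10 (0.24) rose and TYRP1 (-0.27), MITF (-0.42) and DCT (-0.31) fell, TYR (0.49) and MLANA (0.34) rose with UNC0642 in Mel92.1, and DCT (0.62) with UNC0642 in MP41.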

How the data were processed

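RNA of 18 cultures was sequenced, 3 per group, and the series text calls them biological replicates. The authors deposited RSEM expected counts per gene for 26475 human symbols, not normalized. Values that are not whole made up 5.855% to 13.37% of a library. The submitters' processing notes name Bowtie2 2.1.0, RSEM 1.2.15 and hg38. The paper's methods name mm10, TopHat and FPKM values from Cufflinks instead, with an Illumina HiSeq and oligo-dT selection, while the series text names a NextSeq and removal of ribosomal RNA. These accounts differ, and the preparation is not settled here.

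Counts were rounded. Each line's 9 libraries were fitted with edgeR 4.0.16 in R 4.3.3 (filterByExpr, TMM factors, glmQLFit, glmQLFTest, Benjamini-Hochberg adjustment over 14528 genes in Mel92.1 and 14956 in MP41, threshold 0.05), and line differences in 1 fit of 18 libraries. The common biological coefficient of variation was 0.175 in Mel92.1 and 0.109 in MP41. CPM values are scaled by TMM factors and fold changes are from the fits. Library totals ran from 23601156 to 62941462. Lengths and GC content came from the longest GENCODE 29 transcript (23899 symbols by name, 703 by an older symbol, 1873 not found). Alternatives used DESeq2 1.42.0, RLE factors, limma 3.58.1 voom with quality weights, no filter, a replicate block, a GC and length offset, only the groups compared, other placements, and leaving out each library. The code was also run on simulated counts drawn with the means, spread and library sizes of these data. These held no bias by GC content or length and no misplaced library, so that run cannot speak to those limits. Python 3.11.15 with pandas 2.3.3, numpy 2.4.6 and matplotlib 3.10.9 made tables and plots.

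The 50 genes, the placement and the other lists were chosen with earlier results of these data known. Genes were named by a rule: 26 fixed members, in each comparison the 3 highest and 3 lowest log2 fold changes and all members called where 5 or fewer were, and up to 3 called genes per list and direction. Other members named (such as KIF4A, MAD2L1, PRC1 and HMMR) were chosen after their values were seen. 0 columns of the table were left out.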

Additional observations from a re-analysis of the deposited data

Results flagged for a closer look

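The response to UNC0642 differed between Mel92.1 and MP41 for 5 of the 50 genes by the interaction test (edgeR's quasi-likelihood test, Benjamini-Hochberg adjustment). With the MP41 change subtracted, the Mel92.1 change was higher by 2.40 for MKI67, 1.17 for CENPF, 1.15 for CENPE, 0.70 for KIF20B and 0.55 for SMC4 on the log2 scale. The response to A366 differed for 31 genes, with 1.88 for MKI67, 1.56 for CENPE, 1.48 for CENPF, 1.26 for ASPM and 1.13 for KIF14 as the 5 furthest from 0. Both are marked because the same contrast gave different changes in the 2 lines. The UNC0642 difference passed for 0 genes with the libraries as labelled, and the A366 difference for 11 without the 4 exchanged libraries.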

How the results depend on the processing

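Limits come first: 3 libraries a group, 4 libraries placed against their labels, and 1 shallow library rich in ribosomal RNA. For values of named genes, one library left out gave 3069 values, of which 2851 kept direction and call and 0 reversed. Reversed here means a change of sign with a call in either of the fits compared. Among the other values with one library left out, a change of sign with a call in neither fit was the most frequent outcome. RLE factors kept 254 of 258 and no filter 251, and neither RLE factors nor DESeq2 reversed any. Values that changed sign with a call in neither fit were 3 with RLE factors, 2 with DESeq2 and 3 with no filter.

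With the libraries as labelled, 0 members were called with UNC0642 and 0 with A366 against DMSO in Mel92.1, 0 between the inhibitors there and 0 for the line difference with UNC0642. Reversed values were FOXM1 with A366 in MP41 (0.0753 against DMSO, 0.0353 against UNC0642), MKI67 between the inhibitors in Mel92.1 (1.06) and AURKB in the A366 line difference (0.85). These groups mixed the lines by construction. Without the 4 exchanged libraries the counts were 3 (UNC0642, Mel92.1), 0 (A366, Mel92.1), 0 (between inhibitors, Mel92.1) and 11 (A366 line difference), with fewer libraries. In the UNC0642 comparison of Mel92.1 without them, 34 of all genes were higher and 6 lower. With UNC0642, with A366 and between the inhibitors in Mel92.1, limma voom called 8, 29 and 2 members. Of the 29, 27 were higher and 2 lower, and over all genes it called 1522 higher and 1565 lower there. With UNC0642 limma voom called 289 of all genes higher and 124 lower, and between the inhibitors 97 and 117. DESeq2 called 6 and no filter 3 with A366 in Mel92.1, against 113 and 34 of all genes higher and 58 and 6 lower. Fitting only the 2 groups compared called 3 with UNC0642 and 4 with A366. Over all genes that fit called 36 and 84 higher, and 6 and 39 lower. The cause was not tested.

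Replicate numbers are shared, but deviations of same-numbered libraries correlated from -0.474 to 0.606, so the numbers were not taken to pair the samples. With the replicate block, 3 members were called with UNC0642 in Mel92.1, 0 with A366 (10 higher at an unadjusted p under 0.05) and 0 between the inhibitors. Over all genes, 39 were higher and 7 lower with UNC0642 there. In MP41 the block left 38 with A366 and 39 between the inhibitors, all lower. Over all genes 3222 and 3040 were lower in these 2 comparisons and 3063 and 2891 higher.

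With GC content and length as an offset, 2 members were called with A366 in Mel92.1 and 2 between the inhibitors, and the same counts, 2 and 2, came with the replicate block added. Reversed values, given without and then with the block, were SMC4 0.0545 and 0.0539, AURKB -0.38 and -0.38 and CDC20 -0.26 and -0.26 for A366 against DMSO in MP41. Between the inhibitors in MP41 they were SMC4 0.0279 and 0.0278, CDC20 -0.32 and -0.32, UBE2C -0.26 and -0.26 and CENPA -0.0415 and -0.04. For the A366 line difference AURKB was 0.40 and 0.40. For Mel92.1 against MP41 with DMSO, PLK1 was -0.0471 and -0.0358 and CDC20 -0.29 and -0.35, and CDK1 was 0.19 without the block. The cause was not tested.

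Leaving out 1 library gave 3 to 5 members called with UNC0642 and 0 to 4 with A366 in Mel92.1, 0 to 0 and 34 to 43 in MP41, 0 to 1 and 37 to 41 between the inhibitors in Mel92.1 and MP41, 4 to 5 and 24 to 34 for the line differences with UNC0642 and A366, and 41 to 43 between the lines with DMSO. The 24 came without Mel92.1 DMSO replicate 3. Low levels, such as CENPE at 4.45 CPM with DMSO in Mel92.1, limit precision.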
